A study of Mus musculus with 1087 samples.

Results

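A group of 7 nuclear factors known from blood stem cells was followed through single cells of the mouse embryo: Hlf, Mecom, Prdm16, Mllt3, Meis1, Hhex and Mycn. They were found in the count table by symbol, and all 7 were present among its 46078 genes. The table holds read counts of single cells, each a separate library, from the aorta-gonad-mesonephros (AGM) region, where intra-aortic hematopoietic clusters (IAHC) form. Every embryo carried the Gata2 Venus reporter allele over a wild-type allele (Gata2V/+), from C57BL/6HsdJOla females mated to Gata2V/V males. Cells were sorted as living cells with antibodies to CD31, cKit and CD27, and every title calls the cell KitHi. Cells with intermediate Venus (G2VInt) were taken at embryonic day E10 (87 cells), E11 (130 cells) and E11.5 (25.67% of all cells). Cells with low Venus (G2VLo) at E11.5 made up 43.42% of all cells. Another 10.95% were sorted as CD27+ at E11.5, and the labels do not give their Venus level. No embryo, litter or sort is named, so each of these 5 groups was treated as 1 sample: values are described, none is tested, and no p-value is given.

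In the mouse embryo the definitive blood stem cells form from endothelial cells of the aortic wall, which become round, bud into the lumen and turn on hematopoietic genes. Transcription factors and chromatin proteins carry this change and later keep stem cells from maturing. Hlf is a PAR bZIP factor that marks stem cells and their embryonic precursors. Mecom (Evi1) and Prdm16 are related zinc finger proteins of the PRDM family that are needed for stem cell maintenance, and Mecom is also made by endothelium. Mllt3 (AF9) is a reader of acylated histones that brings the super elongation and DOT1L complexes to active genes. Meis1 and Hhex are homeodomain proteins. Meis1 works with HOX proteins, and Hhex is used in endothelium and blood alike. Mycn is a MYC family factor of growing progenitors.

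The promoters of 4 of these genes are shown because Mecom, Prdm16 and Mllt3 moved together between hematopoietic cell clusters, whereas Hlf kept its level there, as described further on. From each sampled day to the next, the summed level in G2VInt cells moved in the same direction for all 7 factors, so this does not set the 4 apart. All 7 genes matched the RefSeq promoter table of build GRCm38.p6, and the 4 shown lie on the minus strand. Each sequence is read 5′ to 3′ and ends at or near an annotated transcript start, with CpG dinucleotides in capitals. The last capital C of the Mecom stretch belongs to a CpG whose G lies beyond the printed end, and it is not counted. None of the printed bases lies in an annotated exon of its gene. The Hlf window (chr11:90390918-90391167) and the Prdm16 window (chr4:154636874-154637123) lie just upstream of the annotated gene, as does the Mllt3 window (chr4:88033408-88033657). The Mecom window (chr3:30509823-30510009) lies inside the long annotated span of the gene, before an inner start.
Hlf: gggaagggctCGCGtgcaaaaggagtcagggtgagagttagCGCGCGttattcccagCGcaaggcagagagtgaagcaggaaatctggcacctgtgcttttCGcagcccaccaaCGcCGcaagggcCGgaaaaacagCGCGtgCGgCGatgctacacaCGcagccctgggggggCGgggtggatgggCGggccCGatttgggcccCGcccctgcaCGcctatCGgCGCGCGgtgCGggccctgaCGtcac
Mecom: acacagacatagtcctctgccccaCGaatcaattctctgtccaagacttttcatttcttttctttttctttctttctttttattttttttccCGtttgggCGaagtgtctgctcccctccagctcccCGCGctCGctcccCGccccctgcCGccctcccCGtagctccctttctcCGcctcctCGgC
Prdm16: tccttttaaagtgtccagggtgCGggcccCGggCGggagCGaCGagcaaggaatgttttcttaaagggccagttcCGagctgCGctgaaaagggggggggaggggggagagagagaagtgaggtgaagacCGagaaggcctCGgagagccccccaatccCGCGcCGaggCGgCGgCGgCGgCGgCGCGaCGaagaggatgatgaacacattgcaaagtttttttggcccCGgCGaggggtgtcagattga
Mllt3: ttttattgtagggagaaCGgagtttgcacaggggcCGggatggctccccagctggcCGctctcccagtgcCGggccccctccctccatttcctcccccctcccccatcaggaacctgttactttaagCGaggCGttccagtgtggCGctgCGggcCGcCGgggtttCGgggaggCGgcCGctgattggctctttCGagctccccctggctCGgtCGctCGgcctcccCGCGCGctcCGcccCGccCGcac
Over 250 bases the Hlf window held 26 CpG, the Prdm16 window 22 and the Mllt3 window 23, and the shorter Mecom window held 11. Across all 32851 promoter windows the median was 6 CpG and the upper quartile 16. Another Mllt3 start lies inside the gene, and its 250 bases held 4 CpG. The full windows of Meis1, Hhex and Mycn held 13, 32 and 11 CpG. All windows of the 7 genes were searched on both strands for 5 short motifs. The E-box CACGTG, which 6.02% of all promoters hold, and the GATA motif AGATAA, held by 9.99%, were in none of them. The ETS motif CCGGAA (12% of promoters) occurred in Hlf and Meis1, and the RUNX motif TGTGGT (14%) in Meis1 alone. The motif TGACAG of HOX and MEIS factors (15.9%) occurred at the inner start of Mllt3 and at a further inner start of Mecom, not printed here, whose window lies in exon bases. It was not found in the printed Mecom window. These matches describe the letters in the windows and no binding was measured.

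Depth ranged from 117369 to 6999570 reads per cell, with medians of 2121423, 2212898 and 1892779 reads in G2VInt cells at E10, E11 and E11.5, 539090 in G2VLo and 621544 in CD27+ cells. Levels are reads summed over a group and scaled to 1000000 reads (CPM), with exact Poisson 95% intervals. The part of a signal that 1 cell gave is its part of the CPM values added over single cells, not of the summed reads. Shares of cells with a read were taken after thinning every cell to 100000 reads, with Clopper-Pearson 95% intervals. The Poisson intervals treat reads as independent, although PCR copies of 1 molecule count as separate reads, so they are too narrow. The Clopper-Pearson intervals treat cells as independent draws. Neither covers differences between embryos, litters or sorts. The library numbers in the titles form a separate block for each G2VInt group, so block and group cannot be told apart in comparisons with these groups. The numbers of the CD27+ cells lie inside the range of the G2VLo cells, which does not show whether these cells were prepared together. As a measure of spread within a group, ratios were also taken over the lower and the upper part of its library numbers. The labels sort all cells except the CD27+ ones into 5 classes and do not spell out their names. The EC cells had 6697 CPM summed over 8 of 8 endothelial markers and 41.2 CPM over 8 hematopoietic ones. The HC1 cells had 2109 CPM of the endothelial and 2500 CPM of the hematopoietic markers. The HC2 cells had 237.9 and 2230 CPM, with 1477 CPM of myeloid markers. The 85 U1 cells held 13352 CPM of macrophage markers, and the 19 U2 cells mixed endothelial (2351 CPM), myeloid and mesenchymal markers. The authors formed the clusters from these same cells, so differences between classes and clusters are a description.

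All 7 factors had their highest class level in HC1, the hematopoietic cells that keep endothelial markers, and they differed in how far the other classes fell below it. Hlf was the most restricted. It had 74.6 CPM in HC1 (interval 73.9–75.4), 7.38 in HC2, 12.8 in U2, 1.20 in U1 and 0.934 in EC, and in U2 a single cell gave 96.99% of the signal. A read of Hlf was found in 84.4% of HC1 cells (80.5–87.8), in 18.5% of HC2 cells (12.1–26.5), and in 5.37% of EC cells (3.22–8.36). The U1 cells, taken as a class that should lack Hlf, had 3.53% (0.734–9.97), an interval that includes the EC share. Few U1 cells had a read, and 1 of them gave 65.5% of the U1 signal and 64 of the 70 U1 reads. This cannot tell whether the EC reads are background. Without thinning the shares were 90.6% in HC1, 18.5% in EC and 5.88% in U1, where median depth was 1212707, 919829 and 496839 reads.

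Mecom, by contrast, was shared between HC1 and endothelium and was nearly absent from HC2. Its levels were 182.1 CPM in HC1, 63.4 in EC, 40.6 in U2, 6.25 in U1 and 2.47 in HC2. The thinned share was 90.1% in HC1 and 71.6% in EC, and the 12.1% in HC2 (6.93–19.2) was close to the 9.41% in U1 (4.15–17.7). Prdm16 was likewise highest in HC1 and then EC, with 37.4 CPM in HC1, 14.5 in EC, 13.7 in U2, 7.62 in HC2 and 5.27 in U1. A read was found in 53.6% of HC1 cells and 34.3% of EC cells, and the shares in HC2 (14.5%) and U1 (14.1%) were nearly equal. Prdm16 was uneven inside HC1: the median cell had 9.42 CPM and the cell at the upper quartile 45.98.

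Mllt3 and Meis1 reached further into HC2. Mllt3 had 97.6 CPM in HC1, 38.3 in U2, 27.8 in HC2, 17.8 in EC and 3.53 in U1, and was read in 81.5%, 42.1%, 52.4%, 46.9% and 11.8% of their cells. Meis1 had 292.8 CPM in HC1, 266.1 in U2, 181.9 in HC2, 27.6 in EC and 14.6 in U1. It was read in 99.01% of HC1 and 86.3% of HC2 cells and in 52.8% of EC cells. The other homeodomain gene, Hhex, was the most evenly spread, with 211.2 CPM in HC1, 163.7 in EC, 128.2 in U2, 103.8 in HC2 and 76.3 in U1. Hhex was read in 98.8% of both HC1 and EC cells and in 80% of U1 cells. Mycn had the highest reads of all, with 470 CPM in HC1 (468.5–472.01), 104.1 in U2, 74.4 in EC, 41.6 in HC2 and 3.82 in U1. The Mycn share was 98.5% in HC1, 84.5% in EC, 39.5% in HC2 and 7.06% in U1.

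Per kilobase of annotated exon, which allows genes to be compared, the order in HC1 was Mycn (142.7 CPM per kb), Hhex (41.8), Meis1 (27.8), Mecom (14.7), Hlf (11.2), Mllt3 (8.13) and Prdm16 (4.01). In EC cells Hhex led with 32.4 CPM per kb, followed by Mycn (22.6) and Mecom (5.10), and Hlf was last with 0.14. In HC2 cells Hhex (20.5), Meis1 (17.3) and Mycn (12.6) led, and Mecom was last with 0.20. Hlf was thus last in EC and Mecom last in HC2, and HC1 was the class in which both were highest. Some reads cannot be placed with certainty. The Mecom gene (chromosome 3, 29951296–30548008, minus strand) overlaps 7 other annotated genes, 2 of them on the opposite strand, and whether counting used strand is not given in the sources used here. Prdm16 (chromosome 4, 154316125–154636873) overlaps 3 genes and Meis1 (chromosome 11, 18879817–19018985) overlaps 5. Hlf (chromosome 11, 90336536–90390895), Mllt3 (chromosome 4, 87769925–88033364), Hhex (chromosome 19, 37434810–37440731) and Mycn (chromosome 12, 12936093–12941914) overlap none.

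The clusters of the authors' clustering without CD27+ cells resolved HC2 further. Cluster 9 (43 cells), where myeloid markers reached 3807 CPM, had 19.5 CPM of Hlf, read in 41.9% of cells (27.01–57.9). Cluster 10 (52 cells), with 500 CPM of mast cell and basophil markers, had 3.77 CPM of Hlf, and 1 cell gave 70.5% of the signal. Cluster 11 (29 cells), with 1370 CPM of erythroid markers, had no cell with an Hlf read after thinning, which at that depth allows a share of cells with a read of up to 10.3%. Without thinning 10 of the 29 cells (34.5%) had a read, at a level of 0.204 CPM over the cluster. Meis1 went from 241.3 and 234 CPM in clusters 9 and 10 to 46.2 CPM in cluster 11. Mllt3 went the other way, with 16.01 and 19.3 CPM in clusters 9 and 10 and 52.1 CPM in cluster 11, where 72.4% of cells had a read (52.8–87.3). The Mllt3 interval of cluster 11 overlapped those of clusters 9 (46.5%, 31.2–62.3) and 10 (46.2%, 32.2–60.5). The Mecom level was 6.08 CPM or less in each of these 3 clusters. In the EC class, cluster 1 had more Mecom than cluster 2, at 79.2 against 47.4 CPM, and more Meis1 (39.1 against 16.1), but less Prdm16 (10.1 against 19.03). The 5 cells of cluster 3 had Mycn in 5 of 5 cells at 129.3 CPM and no read of Hlf, Mecom or Mllt3.

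Within HC2 the G2VLo cells had more reads of several factors than the G2VInt cells of E11 and E11.5. Hlf had 4.30 CPM at E11 (36 cells), 4.34 in G2VInt at E11.5 (44 cells) and 19.9 in G2VLo (36 cells). A read of Hlf was found in 8.33% (1.75–22.5), 9.09% (2.53–21.7) and 36.1% (20.8–53.8) of them, so the intervals of G2VLo and of the others overlap. Mycn had 28.2, 16.5 and 130.95 CPM, read in 41.7%, 22.7% (11.47–37.8) and 52.8% (35.5–69.6) of the cells. Mecom had 1.22, 0.979 and 11.01 CPM and Hhex 94.6, 88.5 and 182.96 CPM. Meis1 went the other way, with 185.5, 192.2 and 136.7 CPM. The groups fill different clusters of HC2. Cluster 9 held 7 of the 36 cells at E11, 8 of the 44 in G2VInt at E11.5 and 23 of the 36 in G2VLo, and clusters 10 and 11 held the others. Within cluster 9 Hlf had 14.4, 20.6 and 31.3 CPM and Mycn 20.1, 39.04 and 185.9 CPM in those cells. Only 8 HC2 cells came from E10, and 1 of them gave 72.6% of the Hlf signal there.

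**Figure D1:**
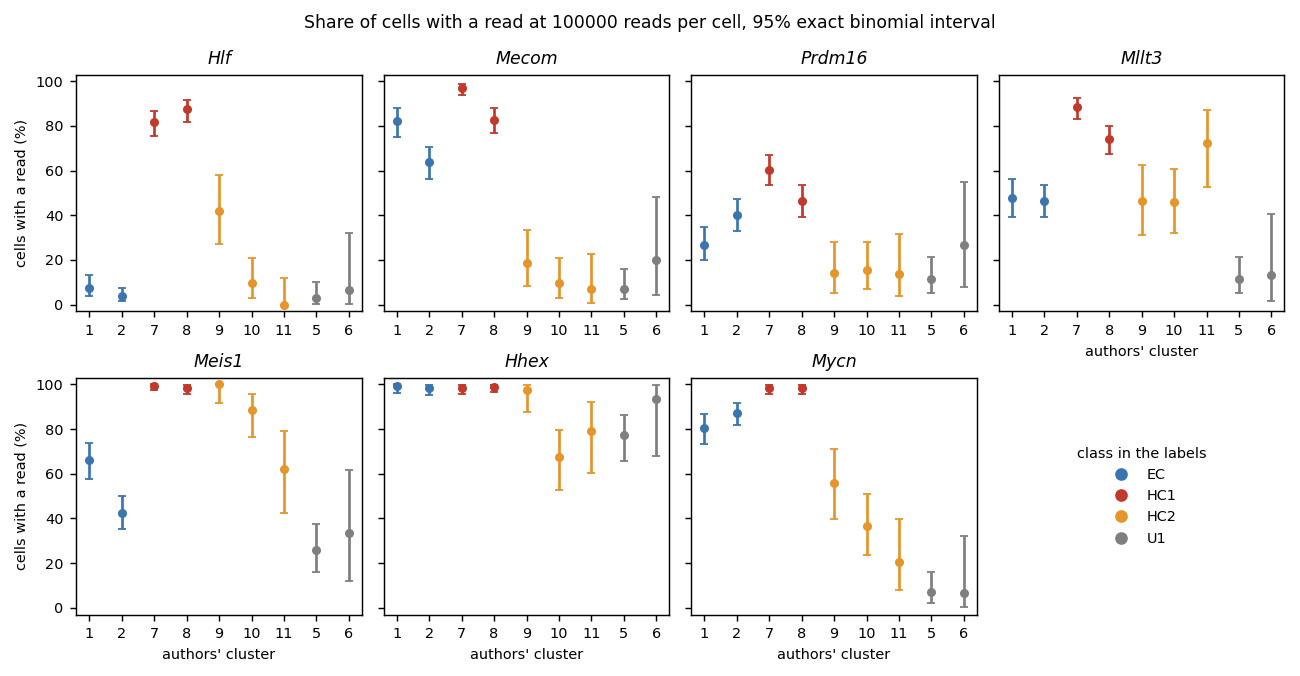
Percent of cells with a read of each factor (vertical axis) in the authors' clusters of the clustering without CD27+ cells (horizontal axis), after thinning to 100000 reads per cell; points are shares, bars are exact binomial 95% intervals and colours are the labelled classes. Hlf stands at 81.6% and 87.4% in clusters 7 and 8 and at 7.59% or less in clusters 1 and 2, whereas Hhex is above 67% in each of the 9 clusters shown (clusters 3 and 4, with 5 and 14 cells, are left out).

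Cells with most of the factors at the same time were found mainly in HC1. After thinning, the median cell had 6 of the 7 factors in HC1, 4 in EC, 4 in U2, 3 in HC2 and 1 in U1. At least 5 factors were read in 93.6% of HC1 cells (90.7–95.8), in 31.3% of EC cells (26.4–36.6) and in 9.68% of HC2 cells (5.10–16.3). All 7 were read in 37.3% of HC1 cells (32.6–42.2), in 4 EC cells (1.19%), in 1 HC2 cell (0.806%) and in 1 U1 cell. Of the cells with all 7 factors, CD27+ cells included, 92.3% lay in clusters 7 and 8 of the clustering of all cells. Of the cells with 6 factors, 64.6% lacked Prdm16 and 20.96% (48 cells) lacked Hlf, and 20 cells lacked Mllt3 and 8 Mecom. Prdm16, the factor with the lowest level per kb in HC1, was thus the usual missing member. Hlf and Mecom were read together in 76.8% of HC1 cells (72.4–80.8), where the single shares were 84.4% and 90.1%. They were read together in 16 EC cells (4.78%). Of the 18 EC cells with an Hlf read, those 16 also had Mecom, which was read in 71.6% of all EC cells.

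**Figure D2:**
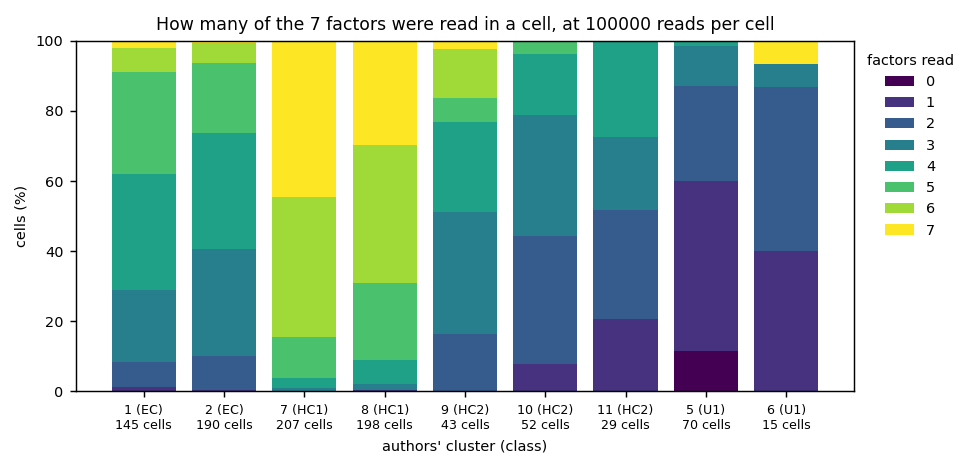
Percent of cells (vertical axis) in 9 of the authors' clusters (horizontal axis, clustering without CD27+ cells, class in brackets; clusters 3 and 4 are not drawn) by how many of the 7 factors had a read at 100000 reads per cell. Bars of clusters 7 and 8, the HC1 cells, are mostly 6 or 7 factors, and those of clusters 5 and 6 mostly 1 or 2.

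How many HC1 cells had all 7 factors also differed between groups. The share was 19.05% at E10 (12 of 63 cells), 62.3% at E11 (48 of 77), 52.9% in G2VInt at E11.5 (54 cells) and 22.7% in G2VLo at E11.5 (37 cells). At equal depth the median HC1 cell had a read of 8240, 7977, 7913 and 6869 genes in these groups. Prdm16 was read in 33.3%, 79.2%, 62.7% and 43.6% of their HC1 cells. The part of both in the shares with all 7 was not tested. The shares are at equal depth, yet the 4 groups also differ in original depth and in library block. They differ in clusters as well: HC1 cells of clusters 7 and 8 numbered 27 and 36 at E10, 46 and 31 at E11, 63 and 39 in G2VInt at E11.5, and 71 and 92 in G2VLo. All 7 factors were read in 44.4% of the cluster 7 cells (37.6–51.5) and 29.8% of the cluster 8 cells (23.5–36.7). In the clustering of all cells the share was also taken over each cluster, whatever the class of its cells. It was 45.5%, 66.7%, 58.7% and 33.3% in cluster 7 of the 4 groups, and 12.7%, 50%, 37.8% and 14.6% in cluster 8. Joint detection inside clusters 7 and 8 says little for pairs with Meis1, Hhex or Mycn, since nearly every cell had a read of these. Over 510 cells and 10 sets of group and cluster, the largest excess among the 21 pairs was for Mecom with Mllt3, found together in 72.2% of cells against a product of 69.2%. The Spearman correlation of this pair over cells had a median of 0.32 across the sets, from -0.36 to 0.60. For Hlf with Mecom the median was 0.06 and for Hlf with Mllt3 0.01. These correlations are between sparse counts of single cells and describe no relation beyond that.

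Clusters 7 and 8 of the clustering of all cells hold CD27+ cells too, which allows all 5 groups to be compared. Cluster 7 had 11, 45, 63, 57 and 16 cells in G2VInt at E10, E11 and E11.5, in G2VLo and in CD27+. Cluster 8 had 55, 34 and 37 G2VInt cells and 69 CD27+ cells, and all of its other cells were G2VLo. Endothelial markers summed to 2103–3111 CPM in cluster 7 and to 1103–1546 CPM in cluster 8. Arterial markers summed to 163.1–706 and 54.04–115.9 CPM. Myeloid markers were at 103.8–214.6 CPM in cluster 7 and 426.3–613 CPM in cluster 8, and hematopoietic markers at 1878–2693 and 2324–2893 CPM. Cluster 8 thus had less of the endothelial and more of the myeloid list in all 5 groups.

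Between these clusters Mecom, Mllt3 and Prdm16 were lower in cluster 8, and Hlf was not. In the same order of groups, Mecom had 134.5, 335.7, 232.9, 166.8 and 151.1 CPM in cluster 7 and 71.9, 160, 82.7, 95.8 and 94.1 CPM in cluster 8. Its log2 ratios of cluster 8 over 7 were -0.90, -1.07, -1.49, -0.80 and -0.68. Mllt3 had 64.6, 206.6, 126.8, 98.2 and 115.6 CPM against 31.6, 78.1, 52.5, 44.8 and 49.6 CPM, with ratios of -1.03, -1.40, -1.27, -1.13 and -1.22. Mllt3 was thus past 2-fold lower in cluster 8 in all 5 groups, although the ratio was -0.90 at E10 without the highest cell and -0.69 in CD27+ cells with the upper library numbers. Prdm16 had 40.3, 67.3, 48.9, 25.6 and 27.5 CPM against 11.6, 32.2, 29.7, 13.7 and 11.7 CPM, with ratios of -1.80, -1.06, -0.72, -0.90 and -1.24. The Prdm16 ratio of CD27+ cells rested on few cells, since it was -2.12 with the upper library numbers and 0.31 with the lower.

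Hlf kept its level. It had 47.3, 85.2, 77.9, 59.9 and 105.5 CPM in cluster 7 and 54.2, 88.7, 79.9, 72.04 and 98.9 CPM in cluster 8, and the ratios lay between -0.09 and 0.27. A single cell gave 25.95% of the Hlf signal in the 16 CD27+ cells of cluster 7. Meis1 was slightly lower in cluster 8, with ratios from -0.38 to -0.20, as was Hhex, from -0.57 to -0.08. Mycn was lower with ratios of -0.64, -0.75, -0.56, -0.43 and -0.33. Counted as past 2-fold lower in cluster 8 were 2, 3, 2, 1 and 2 of the 7 factors, where the share of all genes past it was 7.69%, 7.1%, 6.25%, 4.86% and 7.36%. No factor was past 2-fold higher in any group, where the shares of all genes were 5.24%, 3.44%, 2.97%, 3.66% and 6.09%. This comparison is between clusters drawn on the same cells. The marker values above moved with it, and their part in the result was not tested.

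**Figure D3:**
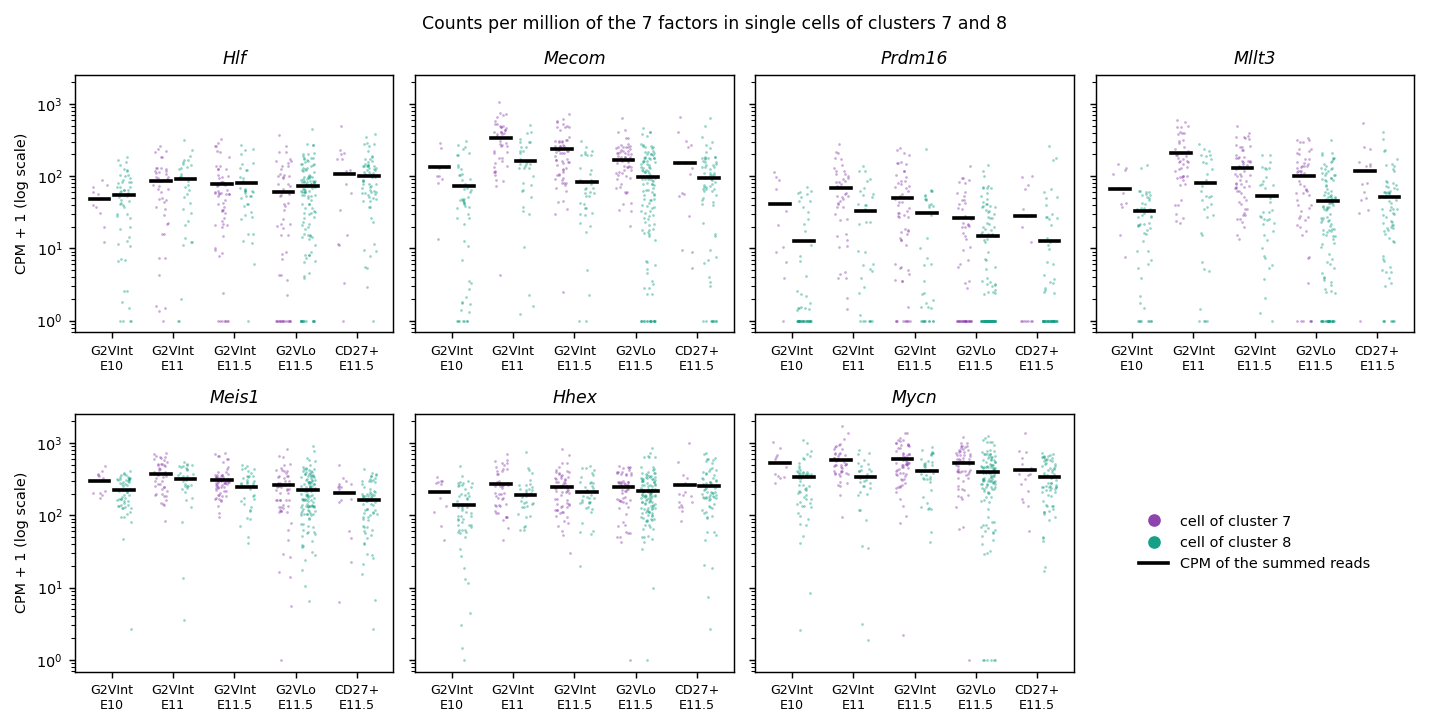
CPM + 1 of each factor (vertical axis, log scale) in single cells of clusters 7 and 8 of the clustering of all cells, by group (horizontal axis); points are cells, not thinned, and black lines are the CPM of the reads summed over the cells. The line of Mllt3 lies lower in cluster 8 than in cluster 7 in all 5 groups, and that of Hlf is at nearly the same height in both.

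Beside Mycn, its relative Myc behaved in the opposite way between these clusters. Myc, the family member used by most adult tissues, had 72.5, 48.01, 39.8, 73.6 and 41.9 CPM in cluster 7 and 170, 187.6, 150, 188.95 and 141.6 CPM in cluster 8. The log2 ratios of cluster 8 over 7 were 1.23, 1.97, 1.91, 1.36 and 1.76, and they stayed at 1.06 or more without the cell with the most Myc. With the lower or upper library numbers they lay between 0.83 and 2.65. Per kilobase of exon, Mycn had 159.7, 174.7, 181.7, 160.6 and 127.7 CPM in cluster 7 and 102.2, 103.6, 123.3, 119.6 and 101.8 CPM in cluster 8. Myc had 26.7, 17.7, 14.6, 27.1 and 15.4 CPM per kb in cluster 7 and 62.5, 69.04, 55.1, 69.5 and 52.1 CPM per kb in cluster 8. Mycn therefore remained above Myc in both clusters, with a smaller gap in cluster 8. Both genes were read in 54.5%, 51.1%, 42.9%, 40.4% and 62.5% of cluster 7 cells, and in 74.5%, 73.5%, 70.3%, 69.9% and 73.9% of cluster 8 cells. Since nearly every cell had a Mycn read, these shares follow the share of cells with Myc. Cells with Mycn alone were 45.5%, 48.9%, 55.6%, 57.9% and 37.5% of cluster 7 and 21.8%, 23.5%, 29.7%, 25.2% and 26.1% of cluster 8.

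**Figure D4:**
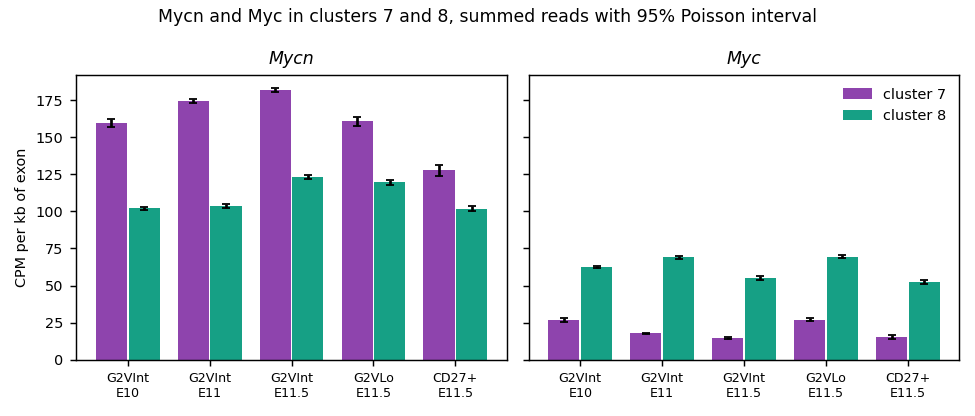
CPM per kilobase of exon (vertical axis) of Mycn and Myc in clusters 7 and 8 of the clustering of all cells, by group (horizontal axis). Bars are summed reads and error bars exact Poisson 95% intervals, which treat reads as independent and cover no spread between embryos. Mycn is higher in cluster 7 and Myc is higher in cluster 8 in all 5 groups.

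A relative of Meis1 also differed between the clusters. Meis2, its closest listed relative, had 10.0, 58.4, 41.3, 19.2 and 9.97 CPM in cluster 7 and 4.08, 10.9, 7.01, 6.29 and 8.32 CPM in cluster 8. The log2 ratios of Meis2 were -1.29, -2.43, -2.56, -1.61 and -0.26, where the ratio of CD27+ cells rests on 1 cell that gave 66.4% of the cluster 7 signal and was 1.06 without it. Meis1 itself stayed within 0.38 of 0 on the log2 scale.

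Between E10 and E11, within the G2VInt gate, Mllt3, Mecom and Prdm16 had more than 2-fold higher levels. Mllt3 had 35.5 CPM on the earliest day, 105.4 at E11 and 43.9 at E11.5. Mecom had 75.1, 175.9 and 92.3 CPM, and Prdm16 had 15.5, 35.8 and 23.5 CPM. All 3 were thus highest at E11. The log2 ratios of E11 over E10 were 1.57 for Mllt3, 1.23 for Mecom and 1.21 for Prdm16. They lay between 1.08 and 1.59 with either part of the library numbers and were at least 1.11 without the highest cell. The other 4 factors were below 2-fold: Hlf had 40.9, 56.8 and 25.1 CPM on the 3 days, Meis1 205.1, 277.3 and 131.1, Hhex 151.5, 185.3 and 178.4, and Mycn 308.7, 322.1 and 202.2. The ratio of Hlf between E11 and E10 was 0.48, but -0.18 over the lower library numbers and 1.07 over the upper ones. So 3 of 7 factors were past 2-fold higher at E11, where 4.03% of the 10168 genes measured were. None was past 2-fold lower, where 0.915% of genes were.

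The difference between E10 and E11 was also present inside both hematopoietic clusters. In cluster 7, Mllt3 went from 64.6 to 206.6 CPM (log2 ratio 1.68) and Mecom from 134.5 to 335.7 CPM (1.32), and Prdm16 from 40.3 to 67.3 CPM (0.74). The E10 part of this cluster is only 11 cells, and 2 of 7 factors were past 2-fold higher there, where 9.37% of all genes were. None was past 2-fold lower (3.86% of genes). In cluster 8, Prdm16 went from 11.6 to 32.2 CPM (1.47), Mllt3 from 31.6 to 78.1 CPM (1.31) and Mecom from 71.9 to 160 CPM (1.15). Here 3 of 7 factors were past 2-fold higher, against 4.58% of genes, and none lower (1.9%). With the lower library numbers the ratios of Mecom and Mllt3 in cluster 8 were 0.47 and 0.68, so their size differed between parts of the libraries. The share of cluster 8 cells with a read of Prdm16 was 27.3% at E10 (16.1–40.96) and 67.6% at E11 (49.5–82.6). For Mecom it was 63.6% (49.6–76.2) and 88.2% (72.5–96.7). Endothelial markers of cluster 8 summed to 1241 CPM at E10 and 1546 CPM at E11, and their part in the result was not tested. Hlf had ratios of 0.85 in cluster 7 and 0.71 in cluster 8, with 0.07 and 0.28 from the lower library numbers.

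From E11 to E11.5 the levels over all cells were lower again for most factors. Hlf had a log2 ratio of -1.18, Mllt3 of -1.26 and Meis1 of -1.08, and these 3 of 7 were past 2-fold lower, against 2.39% of genes. Mecom had -0.93, Mycn -0.67, Prdm16 -0.61 and Hhex -0.06. None of the 7 was past 2-fold higher, where 5.23% of genes were. As means of the CPM of single cells, the Hlf and Meis1 ratios were -0.91 and -0.81. The part of the G2VInt cells in clusters 7 and 8 was 75.9% at E10 (65.5–84.4), 60.8% a day later (51.8–69.2) and 35.8% at E11.5 (30.2–41.8). Within cluster 7 the Hlf ratio was -0.13, that of Meis1 -0.28, that of Mllt3 -0.70 and that of Mecom -0.53, and no factor was past 2-fold lower (2.34% of genes) or higher (1.33%). Within cluster 8 Hlf had -0.15, Meis1 -0.38 and Mecom -0.95, again with none past 2-fold lower (3.48%) or higher (2.47%). The 3 factors past 2-fold over all cells were thus nearer to 0 within both clusters. Between E10 and E11.5 over all cells no factor was past 2-fold higher (7.14% of genes) or lower (2.13%). In cluster 7 none was past it either (7.75% of genes higher, 4.59% lower). In cluster 8 Prdm16 alone was past 2-fold higher, at 1.36 (4.65% of genes, and 3.21% lower), and its ratio was 0.72 without the highest cell, which gave 26.6% of the E11.5 signal.

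**Figure D5:**
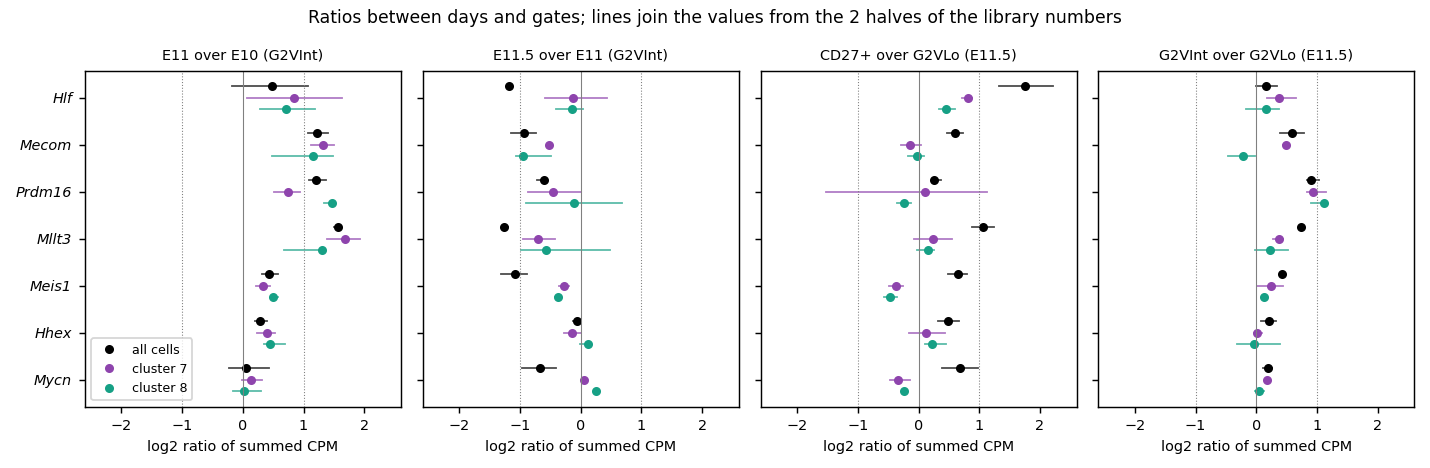
Log2 ratio of summed CPM (horizontal axis) of each factor (vertical axis) for 4 comparisons, over all cells, in cluster 7 and in cluster 8 of the clustering of all cells; dots are ratios, lines join the values from the lower and the upper part of the library numbers and dotted lines mark 2-fold. Mecom, Prdm16 and Mllt3 lie right of 0 in the panel of E11 over E10 in all 3 sets of cells, and in the panel of CD27+ over G2VLo Hlf lies farthest right over all cells.

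Most of the reads of Hlf came from clusters 7 and 8 in every group, whichever the gate. These clusters held 98.97%, 96.8%, 94.3%, 97.8% and 92.3% of the Hlf reads in G2VInt at E10, E11 and E11.5, in G2VLo and in CD27+ cells. For Hhex the shares were 76.9%, 79.6%, 39.3%, 46.5% and 81.8%, and for Prdm16 82.7%, 89.2%, 53.7%, 43.6% and 69.6%. All reads of those cells made up 76.4%, 63.3%, 30.1%, 32.2% and 70.03% of each group. Hlf was thus held by these clusters far beyond their part of the reads, and Hhex came closer to an even spread.

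At E11.5 the CD27+ cells had the highest Hlf of the 3 gates. Hlf had 76.1 CPM in CD27+ cells (74.1–78.04), 25.1 in G2VInt and 22.6 in G2VLo, and was read in 72.3% (63.3–80.1), 37.3% (31.6–43.2) and 32.8% (28.6–37.3) of their cells. Without thinning these shares were 82.4%, 50.5% and 37.7%. Mllt3 had 55.2, 43.9 and 26.3 CPM, Mecom 93.2, 92.3 and 61.6, and Meis1 152.9, 131.1 and 97.4. Mycn had 285.4, 202.2 and 177.6 CPM, Hhex 217.4, 178.4 and 154.4, and Prdm16 14.99, 23.5 and 12.6. Prdm16 was highest in G2VInt. The other factors were highest in CD27+ cells, where the Mecom level (91.1–95.4) nearly equalled that of G2VInt (91.5–93.1). How many of all genes were highest in CD27+ cells was not counted. Over G2VLo cells, the log2 ratio in CD27+ cells was 1.75 for Hlf, between 1.32 and 2.21 over the parts of the library numbers, and 1.07 for Mllt3, between 0.87 and 1.25. These 2 of 7 were past 2-fold higher, where 2.07% of genes were, and none was lower (5.92%). The ratios were also taken without G2VLo cells labelled U1 or U2 and without CD27+ cells of clusters 3, 5 and 6 of all cells. The Hlf ratio was then 1.49 and that of Mllt3 0.85. The 9 CD27+ cells of cluster 4, where some U2 cells lie, were kept. As means over single cells, with no cell left out, the Hlf and Mllt3 ratios were 1.64 and 0.98. Macrophage markers summed to 323.9 CPM in CD27+ and 2031 CPM in G2VLo cells.

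Cells of clusters 7 and 8 made up 71.4% of the CD27+ cells (62.4–79.3) and 38.1% of the G2VLo cells (33.7–42.7). Within cluster 8 Hlf had 98.9 CPM in CD27+ and 72.04 CPM in G2VLo cells, a log2 ratio of 0.46 with 0.60 and 0.34 from the parts of the library numbers. Within cluster 7 the Hlf ratio was 0.82, or 0.65 without the highest cell. Meis1 went the other way, with ratios of -0.47 in cluster 8 and -0.37 in cluster 7. Mycn was also lower in CD27+ than in G2VLo cells, with 335.4 against 394.2 CPM in cluster 8 and 420.9 against 529.3 in cluster 7. Mecom was lower in both clusters too, by less in cluster 8, and Mllt3 was higher in both. No factor was past 2-fold higher within cluster 8 (1.23% of genes) or cluster 7 (6.59%), nor lower (1.99% and 8.97%). The CD27+ sort itself showed in its own gene, as Cd27 had 125.6 CPM in CD27+ cells against 27.97 in G2VLo. The 2 groups had median mitochondrial shares of 8.29% and 6.41%.

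Against G2VInt cells at E11.5, CD27+ cells had a Hlf ratio of 1.60 over all cells, the only 1 of 7 past 2-fold higher (1.7% of genes), and none was lower (8.28%). Within cluster 8 the Hlf ratio was 0.31, and Prdm16 was past 2-fold lower at -1.35 (11.7 against 29.7 CPM), where 6.24% of genes were. Without the highest cell the Prdm16 ratio was -0.71. No factor was past 2-fold higher in cluster 8 (2.68%), and in cluster 7 none was past it higher (4.63%) or lower (12.6%). A Prdm16 read was found in 26.1% of CD27+ cells of cluster 8 (16.3–38.1) and in 45.9% of G2VInt cells (29.5–63.1), so the intervals overlap.

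The Venus gates at E11.5 differed in the share of HC1 cells with all 7 factors, which was lower in G2VLo cells. As given above, G2VLo HC1 cells also had fewer genes read at equal depth and a lower Prdm16 share. In summed levels over all cells each factor differed by less than 2-fold. Between G2VInt and G2VLo cells no factor was past 2-fold higher (1.64% of genes) or lower (1.69%), while Gata2, the gene that carries the reporter, had 168.1 against 67.01 CPM. Prdm16 had the largest ratio, 0.90, or 1.04 as a mean over single cells, followed by Mllt3 (0.74) and Mecom (0.58), and the ratio of all genes had a median of 0.18. Prdm16 stayed above 0 inside the hematopoietic clusters, with 0.93 in cluster 7, between 0.84 and 1.15 over the parts of the library numbers, where no factor was past 2-fold higher (4.55%) or lower (1.42%). In cluster 8 Prdm16 was past 2-fold higher at 1.12 (3.42% of genes, and 1.7% lower), but 1 cell gave 26.6% of the G2VInt signal and the ratio was 0.47 without it. In the endothelial clusters no factor was past 2-fold, in cluster 1 (2.88% of genes higher, 0.685% lower) or in cluster 2 (2.14% and 0.271%). Prdm16 had -0.11 in cluster 1 and 0.79 in cluster 2.

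The genes most like each factor were taken over 23 sets of group and cluster of at least 10 cells, by Pearson's r of log2(CPM + 1) among 11133 protein-coding genes. This is a description, since several sets come from the same group or the same cluster. For Hlf they included Gfi1 (0.96) and Setbp1 (0.95). Gfi1 is a repressor that shuts down endothelial genes in emerging blood cells. For Mecom they were P3h3 (0.98), Mogat2 (0.97) and Cpxm1 (0.97), and for Meis1 Angpt1 (0.96), Itgb3 (0.94) and Crlf3 (0.93). Angpt1 is a ligand of the receptor Tek, and Itgb3 the integrin chain of platelets and early progenitors. Mycn was closest to Gimap5 (0.96), Fam107b (0.95) and Serpinf1 (0.94), Hhex to Efcc1 (0.93), Fam181b (0.92) and Pam (0.92), and Mllt3 to Tarbp2 (0.94), Dido1 (0.93) and Zfp1 (0.93). Prdm16 had the lowest values, with Zdhhc9 at 0.82, Cntrob at 0.81 and Fahd1 at 0.81. Over sets of at least 20 cells its closest gene was Zfp512 at 0.94. Among the factors themselves Mecom with Hhex (0.89), Hhex with Mycn (0.89) and Mecom with Mycn (0.88) were closest, and Meis1 with Prdm16 (0.34) and Meis1 with Mecom (0.36) least alike. With sets of at least 20 cells all 7 lists of 3 genes changed, so the names depend on which sets are used.

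Among other nuclear factors of stem cells, a list of 25 genes, 7 of 22 measured were past 2-fold higher in CD27+ than in G2VLo cells (2.07% of all genes) and 1 was lower (5.92%). The largest ratios were those of Gfi1 (2.24), Nkx2-3 (1.61), Hmga2 (1.53) and Lmo2 (1.28), and the list had a median of 0.81 beside 0.02 for all genes. Hlf, at 1.75, was exceeded on this list by Gfi1 alone. Between E11 and E10 none of 22 was past 2-fold higher (4.03% of all genes) or lower (0.915%), with the largest ratios for Nkx2-3 (0.98) and Gata2 (0.90) and a list median of 0.27 beside 0.01. From E11 to E11.5, 8 of 24 were past 2-fold lower (2.39% of all genes) and 2 higher (5.23%), with Ikzf2 (-1.53), Runx1 (-1.31), Tcf15 (1.23) and Zbtb16 (-1.20) the largest. Between the Venus gates 3 of 24 were higher (1.64% of all genes), Zbtb16 (1.77), Gata2 (1.33) and Nkx2-3 (1.09). In cluster 8 against 7, 2 to 3 were past 2-fold higher and 2 to 4 lower in each group, where 2.97% to 6.09% of all genes were higher and 4.86% to 7.69% lower. The endothelial factor Sox17 and Tcf15 were among the lower ones in G2VLo cells (-2.48 and -2.44), and Gfi1b was higher in all 5 groups, from 1.14 to 1.53.

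The partner lists of the single factors are short, so 1 gene past 2-fold is read against the share of all genes past it. That share was 4.03% higher and 0.915% lower for E11 over E10, 5.23% and 2.39% for E11.5 over E11, 1.64% and 1.69% for G2VInt over G2VLo, and 2.07% and 5.92% for CD27+ over G2VLo. Counts of 1 gene in lists this short are given as a description. Of the CtBP and H3K9 methylation proteins that work with Mecom and Prdm16, all 8 were measured and none was past 2-fold in any of the 6 comparisons of all cells. Of the super elongation and DOT1L proteins that work with Mllt3, 1 of 14 was past 2-fold higher at E11 than at E10, Ell2 (1.74), and the same gene was lower at E11.5 than at E11 (-1.24). Of the TALE partners of Meis1, 1 of 6 was higher at E11 than at E10, Meis2 (1.51), and 2 of 7 were higher in G2VInt than in G2VLo cells, Meis2 (1.06) and Irx3 (1.01). Of the HoxA genes 4 were measured, and in CD27+ over G2VLo cells Hoxa5 alone passed 2-fold (1.06). Of the MYC and MAX network 1 of 8 was higher at E11 than at E10, Mxd4 (1.14), and 1 of 8 was lower in CD27+ than in G2VLo cells, Mxd1 (-1.03). Of the other PRDM genes, Prdm1 was lower in G2VInt (-1.26) and in CD27+ cells (-1.57) than in G2VLo cells, while 5 other genes measured were not past 2-fold in either comparison. Of the relatives of Hlf, Cebpb was higher in CD27+ than in G2VLo cells (1.52), the 1 of 4 past 2-fold, and it was lower at E11 than at E10 (-1.06). The comparisons with G2VLo share those cells, and those with E11 share the E11 cells.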

How the data were processed

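Messenger RNA was read in 1087 single cells of the AGM region, and the authors deposited 1 table of raw read counts per Ensembl gene, per the file headers and whole values. HTSeq 0.6.0 counted the reads and GRCm38 is the genome, per the submitters' processing notes. The aligner, annotation, strand setting and read filters are not given in the sources used here. Libraries were made with Nextera XT, per the labels' protocols, and no molecular identifiers are named there.

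Symbols came from GENCODE M21 on the same build, for 45229 of 46078 genes. The counts without a symbol were 0.0859% of all 1380367268. Groups, clusters and classes were taken from the labels: 87, 130 and 279 G2VInt cells at E10, E11 and E11.5, 472 G2VLo cells and 119 CD27+ cells, with 335 EC, 405 HC1, 124 HC2, 85 U1 and 19 U2 cells. Cluster 8 of all cells had 123 G2VLo cells. With 1 sample per group there is no test. Counts were summed over cells and given as CPM. A gene counted as measured in a comparison if 1 side had 10 CPM or more and 5% or more of its thinned cells had a read, and 2-fold was the size asked for. Per-cell shares used counts thinned at random to 100000 reads, which all cells reached. A count of 0 allows up to 3 counts. The ratio code was tested on simulated data.

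The text names the 7 members, of each partner list the 2 to 4 genes with the largest ratio, and for each member the 3 genes with the highest r. A few results under this rule are not reported here. Members and lists were chosen with earlier results of these data known. Python 3.11.15 with numpy 2.4.6, pandas 2.3.3, scipy 1.17.1 and matplotlib 3.10.9 was used, with edgeR 4.0.16 in R 4.3.3 for TMM scaling as an alternative.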

Additional observations from a re-analysis of the deposited data

How the results depend on the processing

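A count of the 7 factors past 2-fold is said to move here when it changes by more than 1.5 times, so a change from 3 to 2 or from 3 to 4 is not counted as a move. None moved when mitochondrial genes were left out of the totals (50 of 50 stayed). With TMM scaling 2 of 50 moved: 1 factor was higher at E11.5 than at E10 in cluster 7, and 0 in G2VInt over G2VLo in cluster 8. With means of the CPM of single cells, 1 factor was higher in G2VInt over G2VLo and 1 in CD27+ over G2VLo over all cells, and 1 was lower at E11.5 than at E11. In the same setting G2VInt over G2VLo had 1 higher in cluster 7 and 0 in cluster 8, CD27+ over G2VInt 0 lower in cluster 8, and cluster 8 over 7 had 1 lower in CD27+ cells. With no filter on low values 1 was higher in G2VInt over G2VLo in cluster 2. With U1 and U2 cells left out in the way given above, 1 was higher in CD27+ over G2VLo.

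Smaller changes included E11 over E10, with 4 higher over all cells and in cluster 8 and 3 in cluster 7 over the upper library numbers, and E11.5 over E11 over all cells, with 2 lower there and with TMM scaling and 4 lower over the lower library numbers. Cluster 8 over 7 had 2 lower at E11 and 3 in G2VInt at E11.5 over the upper library numbers, and 3 lower at E10 and in G2VInt at E11.5 with means of single cells. Using the upper library numbers alone, G2VInt over G2VLo had 1 factor higher over all cells and in cluster 7, 0 in cluster 8 and 3 in cluster 2. CD27+ over G2VLo had 1 higher over all cells and in cluster 7, E11.5 over E10 had 1 higher in cluster 7, and E11.5 over E11 had 1 lower in cluster 8. Cluster 8 over 7 had 1 lower at E10 and in CD27+ cells and 2 in G2VLo cells. Using the lower library numbers alone, 1 was lower at E11.5 than at E10 over all cells. In cluster 7, 1 was lower in CD27+ over G2VLo and 1 in CD27+ over G2VInt. In cluster 8, 1 was higher at E11 and 2 at E11.5 than at E10, and cluster 8 over 7 had 1 lower in CD27+ cells. Prdm16 changed sign there, to 0.31. In the clustering without CD27+ cells, G2VInt over G2VLo had 1 higher in cluster 7 and 0 in cluster 8, and E11.5 over E10 had 2 and 3. Cluster 8 over 7 had 1 lower at E11 and 2 in G2VLo cells in that clustering. A smaller change there was E11 over E10 in cluster 7, with 3 higher.

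Leaving out the cell with the highest CPM was chosen after seeing the data. It left 0 of the factors past 2-fold in cluster 8 for G2VInt over G2VLo, CD27+ over G2VInt and E11.5 over E10, and 1 for cluster 8 over 7 at E10. At 1.5-fold over all cells, 2 factors were higher in G2VInt and 5 in CD27+ over G2VLo, 1 lower in CD27+ over G2VInt, 6 lower at E11.5 than at E11, and 1 higher and 3 lower at E11.5 than at E10. In cluster 7 these were 1, 1 and 3, with 4 higher at E11 than at E10, 1 lower at E11.5 than at E11 and 3 higher at E11.5 than at E10. In cluster 8, 2 were lower in CD27+ over G2VInt, 1 lower at E11.5 than at E11 and 2 higher than at E10. Cluster 2 had 3 higher in G2VInt over G2VLo, and cluster 8 over 7 had 4 lower at E10 and 3 in G2VLo cells.

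The share of HC1 cells with at least 5 factors was 98.8% without thinning, 89.6% at 50000 reads and 88.6% when 2 reads were asked for, and that with all 7 was 58.5%, 27.2% and 22.5%. Except where a value above shows it, the cause was not tested. No paired analysis was possible because each group is 1 sample and the replicate numbers only follow accession order. Without thinning, Hlf was read in 93.7% of HC1 cells at E10 and 85.3% in G2VLo, against 80.95% and 80.98% at 100000 reads.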
